A study of Mus musculus with 6 samples.

Results

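Genes of the miRNA processing machinery were followed in small RNA libraries of mouse heart. A list of 9 genes that act in cropping, export, dicing and loading of miRNAs was matched by Ensembl identifier to the deposited table, and 5 of them, Drosha, Prkra, Ago1, Ago2 and Ago3, have a row among the 10065 rows analysed here. The other 4, Dgcr8, Xpo5, Dicer1 and Tarbp2, have no row among these and so no value. The study took whole hearts from SV129 mice at postnatal day 6, with 3 ADAR2_KO and 3 wildtype samples. The ADAR2_KO animals are Adarb1-/- and lack the RNA editing enzyme ADAR2. By the study's methods all animals were female siblings that also carry the pre-edited glutamate receptor allele Gria2R/R, which keeps mice without ADAR2 alive, whereas the genotype labels name this allele for the ADAR2_KO samples alone. The allele is therefore shared by both groups, and neither is a plain wild type.

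A miRNA is cut from its primary transcript in the nucleus by the Microprocessor, which is built from the nuclease Drosha and its double-stranded RNA binding partner Dgcr8. Exportin 5, encoded by Xpo5, carries the hairpin to the cytoplasm, where Dicer1 cuts it to a duplex with the help of Tarbp2 or Prkra. One strand is then loaded onto an Argonaute protein, of which Ago2 is known for cutting fully paired targets.

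The table gives a single value per gene that is not part of the authors' comparison of the genotypes, the mean normalized count. This is the number of reads on the gene after division by a size factor for each library, averaged by the authors over all samples. It is not divided by gene length. No value per animal is given, so the depth of each library and the spread between animals are unknown, no error can be set beside a mean, and the members could not be compared between ADAR2_KO and wildtype hearts here. A hint about miRNA genes as a class would need such a comparison and was not sought. The values below are levels over both genotypes together. Because the RNA was cloned as small RNA, a value on an mRNA gene stands for fragments assigned to that gene, and fewer cells of a type cannot be told apart from less RNA per cell.

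The mean normalized counts added up to 214408 over all rows, of which 81.5% lay on 8439 protein-coding genes and 2.55% on 134 miRNA genes. The 5 members together held 70.5, or 0.0329% of that sum. All 8 cardiomyocyte markers listed had a row, with means from 4.82 for Tnnt2 to 943 for Myh7. Mir208a and Mir208b, the miRNA genes inside Myh6 and Myh7, had means equal to 97.3% and 99.4% of their hosts', and the part of miRNA reads in the hosts' means was not tested. Fibroblast markers had rows for 4 of 5 genes, endothelial markers for 4 of 4, erythroid markers for 4 of 5, macrophage and skeletal muscle markers for 1 of 3 each, and liver and smooth muscle markers for 0 of 3 each. Brain markers had rows for 3 of 3, up to 114 for Syt1, so a row in this table does not by itself mark a heart transcript. These counts stand beside gene length. Of the 200 protein-coding genes nearest in span, 87.5% to 99.5% had a row for the brain markers and 66.5% to 98.0% for the endothelial. For the cardiomyocyte markers 5.5% to 100% had one, for the fibroblast 21.5% to 65.0% and for the erythroid 0.5% to 33.0%. For the macrophage markers it was 4.0% to 96.0%, and for the skeletal muscle 10.5% to 32.5%. This share was 3.5% to 17.5% for the liver markers and 4.5% to 97.0% for the smooth muscle markers. Among the latter, Myh11 (96.8 kb) had no row where 97.0% of genes of like span did. The targeted gene Adarb1 had a mean of 16.6 over both genotypes, which does not check the labels of the samples.

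Over all protein-coding genes, having a row went with length on the chromosome, and the 9 listed genes followed this only in part. Prkra and Ago1 had a row, while the longer Dgcr8, Xpo5 and Dicer1 had none. Gene span, the distance from the first to the last annotated base with introns included, was taken from GENCODE M21. Drosha, at 110 kb, was the longest of the 9, and 99.0% of the 200 protein-coding genes nearest to it in span had a row. For Ago3 (97.9 kb) this share was 97.0%, and for Ago2 (89.1 kb) it was 93.0%. Dicer1, at 64.2 kb, had no row although 85.5% of genes of like span did. It is the listed gene whose missing row is the least common for its length. Xpo5 (40.8 kb) and Dgcr8 (35.3 kb) had no row where 64.0% and 52.5% of like genes did, and Ago1 (33.6 kb) had one where 54.5% did. Tarbp2, the shortest with 5.49 kb, shared the lack of a row with most genes of its length, since 5.5% of those had one. Prkra (18.1 kb) stood on the other side, with a row that 23.0% of like genes had. Over all 21951 annotated protein-coding genes the share was 38.2%, and it ran from 6.95% under 10 kb to 98.2% at 100 kb or more.

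**Figure D1:**
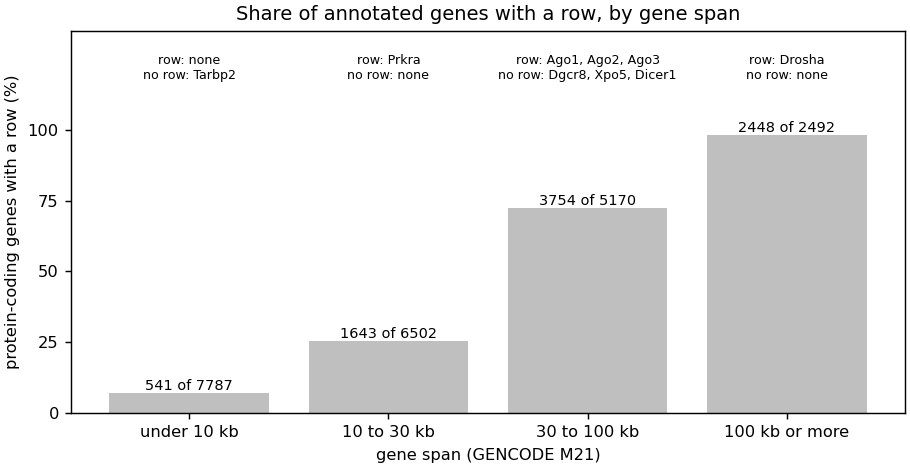
Bars give the percentage of annotated protein-coding genes (GENCODE M21) that have a row in the table, in 4 ranges of gene span, with the number of genes above each bar and the 9 listed genes named at the top. The share climbs from 6.95% under 10 kb to 98.2% at 100 kb or more, and 3 of the 4 listed genes without a row lie between 30 and 100 kb.

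The level itself also went with span more than with mRNA length. Across the 8409 protein-coding rows with an annotated gene, Spearman's rho between the mean normalized count and gene span was 0.56, and that with the combined length of the exons was 0.27. These are correlations across genes of the same libraries, given as a description, and genes are not independent replicates. Every one of the 10065 rows is typed as a gene in the table, and whether intronic reads were counted is not given in the sources used here. Levels of the members are therefore given as deposited, per kb of exons, per kb of span, and beside rows of like span.

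**Figure D2:**
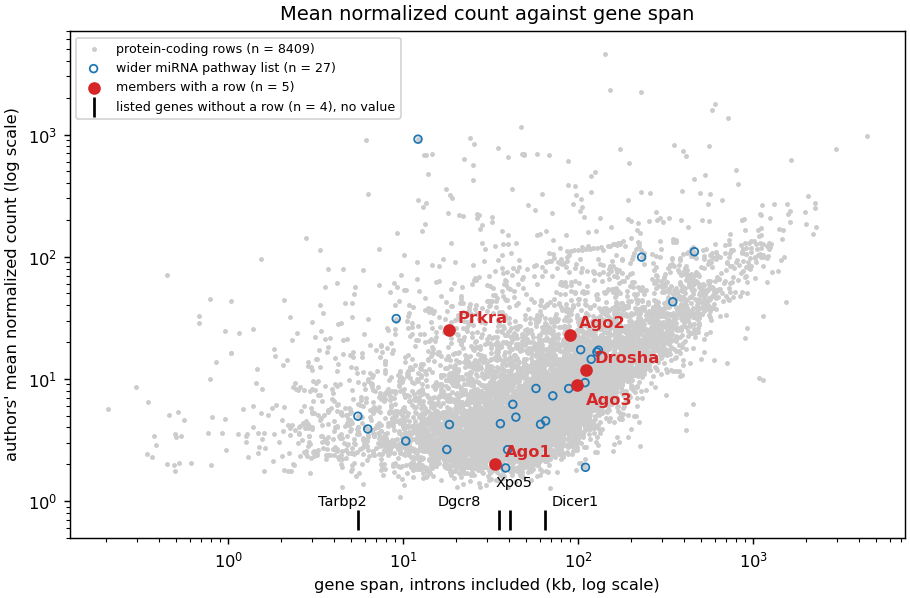
Each point is a gene, with gene span in kb on the horizontal axis and the authors' mean normalized count over all samples on the vertical axis, both on log scales. Grey points are protein-coding rows, blue circles are 27 further genes of the miRNA pathway, red points are the 5 members, and ticks at the bottom mark the spans of the 4 listed genes without a row; Prkra and Ago2 lie towards the top of the grey cloud at their spans, and Ago1 at its lower edge.

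Among the genes of hairpin cropping, Drosha had a value and Dgcr8 did not. Drosha (ENSMUSG00000022191, chromosome 15, plus strand), the nuclease that frees the hairpin, had a mean normalized count of 11.7. This was higher than in 68.4% of the other protein-coding rows. The 200 rows nearest in span had a median of 7.93, with quartiles of 6.21 and 12.7, so that Drosha lay inside the range held by the middle of its like. Per kb of exons its level was 1.98, near the median of 1.36 over protein-coding rows, and per kb of span it was 0.106 against a median of 0.118. A predicted miRNA gene, Gm47288, lies inside Drosha on the same strand and has no row.

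Dgcr8 (ENSMUSG00000022718, chromosome 16, minus strand) encodes the partner that recognises the hairpin. Its own transcript carries the hairpins of Mir1306 and of Gm24572, the gene of mir-3618, and it is known as a substrate of the Microprocessor. None of these 3 genes has a row. Xpo5 (ENSMUSG00000067150, chromosome 17, plus strand), the export factor, is likewise without a value. Polh, a DNA polymerase gene on the opposite strand with 136 bases between the genes, had a mean of 43.1.

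Of the dicing genes, the partner protein gene Prkra was the only one with a value. Prkra (ENSMUSG00000002731, chromosome 2, minus strand) encodes PACT, which binds Dicer and is also known as an activator of the kinase PKR. Its mean normalized count of 25.1 was the highest of the 5 members and above 85.2% of the other protein-coding rows. For its span the level stood higher still. The 200 rows nearest in span had a median of 3.97 and an upper quartile of 7.08, and Prkra exceeded 94.0% of them, with 6.32 times their median. Per kb of exons its level of 12.4 was above 95.2% of protein-coding rows, and per kb of span its level of 1.38 was above 95.1% of them. No annotated gene overlaps Prkra. The nearest one, Pjvk, starts 460 bases away on the opposite strand and had a mean of 5.51. Of 2006 different stretches of 22 bases in Prkra transcripts, 3 occur in transcripts of other genes, which is 0.15%. Introns were not compared. Dicer1 (ENSMUSG00000041415, chromosome 12, minus strand), the enzyme of this step, and Tarbp2 (ENSMUSG00000023051, chromosome 15, plus strand), the other partner, have no row.

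**Figure D3:**
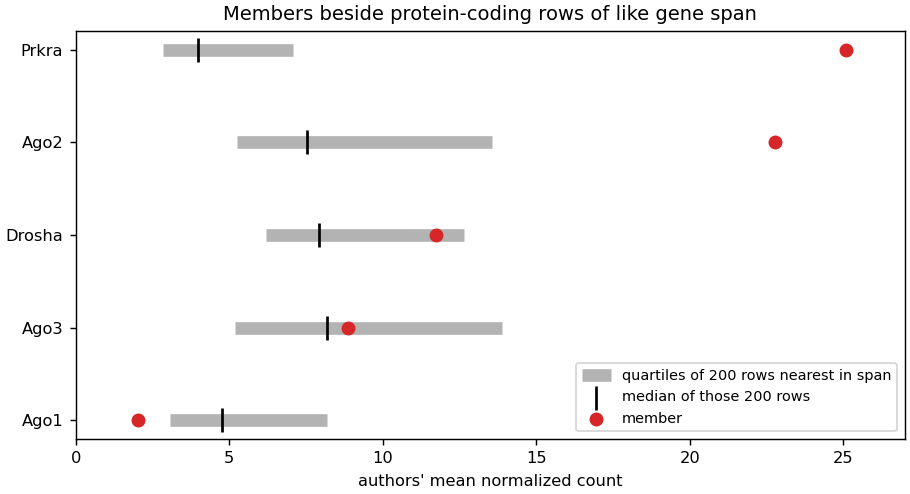
Red points are the authors' mean normalized counts of the 5 members over all samples, on a linear axis; grey bars span the quartiles and black ticks the medians of the 200 protein-coding rows nearest to each member in gene span. Prkra (25.1) and Ago2 (22.8) lie above the upper quartile of their like, Drosha (11.7) and Ago3 (8.88) within the quartiles, and Ago1 (2.02) below the lower quartile.

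The 3 listed Argonaute genes all had a row, and their levels covered a wide range. Ago2 (ENSMUSG00000036698, chromosome 15, minus strand), the Argonaute with slicing activity, had a mean normalized count of 22.8. It was higher than 89.0% of the 200 rows nearest in span, which had a median of 7.52. Ago3 (ENSMUSG00000028842, chromosome 4, minus strand) had a mean of 8.88, close to the median of 8.17 among its like. Ago1 (ENSMUSG00000041530, chromosome 4, minus strand) had the lowest mean of the members, 2.02, in a table whose lowest mean is 1.09. Only 2.5% of the rows nearest to Ago1 in span were lower, and the median of those rows was 4.77. Of genes of like span 54.5% had a row, and those without one are not in this comparison. Were the mean taken over 6 libraries, 2.02 would amount to 12.1 normalized reads in all, against 137 for Ago2, so the position of Ago1 rests on few reads.

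The order of the 3 listed Argonaute genes was the same by the mean, per kb of exons and per kb of span. Ago4, not on the list, did change places with Ago3, as given below. Per kb of exons the level was 1.62 for Ago2, 0.536 for Ago3 and 0.249 for Ago1. Per kb of span the levels were 0.256, 0.0908 and 0.0601. Among all protein-coding rows the place of these genes moved with the length used. Ago2 was above 83.6% of them by the mean, 56.3% per kb of exons and 77.5% per kb of span, and Ago3 above 59.6%, 14.3% and 36.8%. Ago1 was above 2.71%, 1.39% and 15.4% and so stayed in the lowest part. Ago2 was 3.03 times Ago3 per kb of exons and 2.82 times per kb of span, while Ago3 was 2.16 and 1.51 times Ago1. Drosha and Ago2 did change places, since Drosha was 1.22 times Ago2 per kb of exons and 0.416 times Ago2 per kb of span. Without values per animal it could not be asked which neighbours in this order differ beyond their spread.

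**Figure D4:**
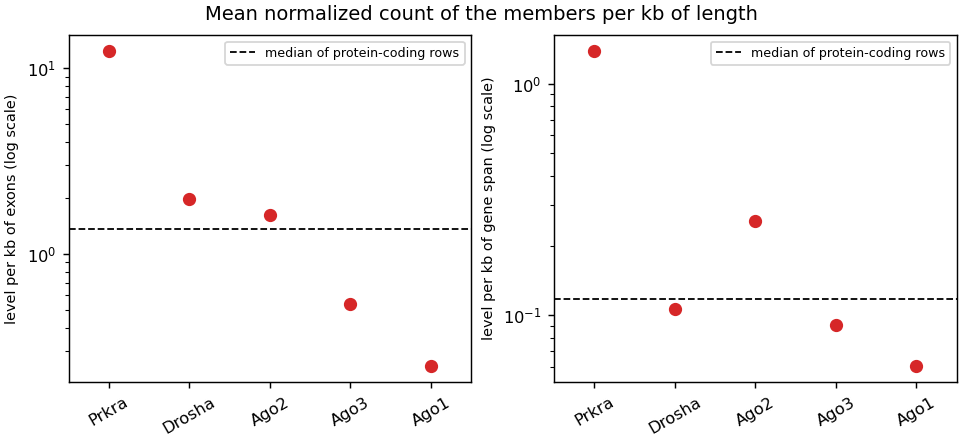
Points give the mean normalized count of the 5 members per kb of exons (left) and per kb of gene span (right), each on a log axis, with a dashed line at the median of protein-coding rows. Prkra is highest on both sides, Ago1 lowest, and Drosha falls from 1.98, above the line on the left, to 0.106, just below it on the right.

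Some stretches of coding sequence are identical between Argonaute genes, and a short read from such a stretch cannot be assigned to one of them. The longest run of identical bases between the coding sequences of Ago1 and Ago3 was 170 bases, compared with 53 for Ago1 and Ago2 and 17 for Ago2 and Ago3. The first 30 bases of the run shared by Ago1 and Ago3 are shown with the closest window in the coding sequences of Ago2 and Ago4 (GENCODE M21 transcripts, 5′ to 3′). Capitals mark bases that differ from Ago1. Positions count from the first base of the coding sequence, and the window covers bases 1402 to 1431 in Ago1, 1411 to 1440 in Ago2 and Ago3, and 1384 to 1413 in Ago4.
Ago1: ttcacagaccagcttcggaagatttccaag
Ago2: ttcacagaGcaActGAggaagatCtcGaGA
Ago3: ttcacagaccagcttcggaagatttccaag
Ago4: ttcacTgaccaActtcgTaaAatCtccaag

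A fragment of this window cannot be told apart between Ago1 and Ago3, while Ago2 differs from them at 8 bases and Ago4 at 5. Of the 2550 different stretches of 22 bases in the Ago1 coding sequence, 150 (5.88%) also occur in that of Ago3 and 35 (1.37%) in that of Ago2. Set against all stretches of the transcripts, untranslated parts included, the same 150 are 1.85% of the 8130 of Ago1 and 0.906% of the 16561 of Ago3. The coding sequences of Ago2 and Ago3 share 0 stretches of this length. Over whole transcripts, Ago2 shares 1536 of its 13998 stretches with other genes, mostly with processed pseudogenes and led by Gm6088 with 937, but 0.55% are shared with genes that have a row. This share was 2.31% for Ago1 and 1.15% for Ago3. The overlapping gene Chrac1, on the opposite strand at the end of Ago2, has no row either. The part of shared reads in the levels of Ago1, Ago2 and Ago3 was not tested, and how reads with several matches were counted is not given in the sources used here.

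As a group, the 5 members with a row had a median mean normalized count of 11.7, beside 6.77 over all protein-coding rows. On the log2(mean + 1) scale the median of the members was 0.71 higher, but per kb of span, where a pseudocount of 1 would exceed most levels, the medians were 0.106 and 0.118, a log2 difference of -0.15 without a pseudocount. Its direction thus turns with the division by gene span. Of the 5, 4 lay above the median of rows of like span, Ago1 being the exception. The 4 listed genes without a row are not in these counts.

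A wider list of 44 genes that work with the machinery was looked up in the same way, and 27 had a row, with a median mean normalized count of 7.26. Those with a row had a median span of 60.8 kb and those without one a median of 18.02 kb. Over all annotated protein-coding genes, 38.2% had a row. For the 44 listed here, the share of like-span genes with one ran from 5.0% to 99.5%. Of the 27 with a row, 19 lay above the median of the rows of like span, which by definition splits those rows evenly. Among 9 cofactors of hairpin cropping, with a median span of 10.7 kb, 2 had a row. The share of like-span genes with a row ran from 5.5% to 61.5% for these 9. The 2 with a row were the RNA binding protein gene Hnrnpa1, with a mean of 3.89, and Erh, with 3.10. Both lay below the median of their like. Slc39a9, which overlaps Erh on the opposite strand, had a mean of 2.41, and its part in the mean of Erh was not tested. Of the 2 export genes, Xpo1, which encodes the general exportin CRM1, had a mean of 6.19, and Ran had no row.

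Genes that tail, edit or degrade small RNA and its precursors had rows for 8 of 11. Their median span was 100 kb, and the share of like-span genes with a row ran from 21.5% to 99.0%. The highest was Dis3l2, the exonuclease that removes uridylated let-7 precursors, with a mean of 42.7, which is 1.36 times the median for its span of 346 kb. Xrn1, the cytoplasmic 5′ exonuclease, followed with 17.3. Genes that overlap Dis3l2 and Xrn1 also had rows. Gm37967 (4.50) lies inside Dis3l2 on the same strand, and Gm28375 (9.42) overlaps it on the opposite strand. Gm28085 (9.64) lies inside Xrn1 on the opposite strand. The part of these genes in the means of Dis3l2 and Xrn1 was not tested. The lowest were Adar, which encodes ADAR1, with 1.87, and Lin28b, which blocks let-7 maturation, with 1.89. Lin28b spans 110 kb, about as much as Drosha, and was lower than all of the 200 rows nearest in span, whose median was 8.62. Adarb1 had 1.58 times the median for its span, whereas Adar had 0.434 times.

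The chaperones that load Argonaute held the highest value of the list. Of these 6 genes, 5 had a row, and Fkbp4 had none. Their median span was 10.6 kb, and the share of like-span genes with a row ran from 5.0% to 26.0%. Of the 5, 4 lay above the median of the rows of like span. Hsp90aa1, the inducible form of HSP90, had a mean normalized count of 916, which is 228 times the median for its span of 12.1 kb, while its constitutive relative Hsp90ab1 had 4.95. Per kb of exons these levels were 233 and 1.65. Where on these genes the reads lie, and how many match other genes as well, was not tested. Hspa8, encoding the chaperone HSC70, had 31.1, and it holds the snoRNA genes Snord14c and Snord14d, with means of 12.2 and 12.9. Their part in its mean was not tested. Ptges3 (4.23) and Dnaja2 (2.64) were the lowest of this group. Among the silencing factors, 11 of 16 had a row. Their median span was 50.6 kb, and the share of like-span genes with a row ran from 19.5% to 99.5%. Snd1, which encodes a nuclease found with Argonaute, had 110 over a span of 460 kb, and Tnrc6b, a GW182 protein gene that ties Argonaute to deadenylation, had 99.1, or 5.09 times the median for its span. Its relatives Tnrc6a and Tnrc6c lay near theirs, with 1.16 and 1.09 times. The gene Lrrc4 lies inside Snd1 on the opposite strand and had a mean of 78.4. Its part in the mean of Snd1 was not tested. The lowest were Fmr1 (2.63) and Ipo8 (4.24). Ago4, the fourth Argonaute, which was not on the list of 9, had a mean of 4.86, 1.11 times the median for its span.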

How the data were processed

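Small RNA of 6 mouse hearts was sequenced by the authors, who clipped adaptors with cutadapt and used Bowtie for mapping and DESeq for the comparison of genotypes. The submitters' processing notes name mm9. Tool versions, the annotation and the counting of introns and of reads with several matches are not given in the sources used here. The signal used is the deposited mean over all samples of counts divided by a size factor, as the authors made it. The other 6 columns of numbers hold the authors' own comparison (fold changes, their error, a test statistic and P) and were not used. The fit planned per sample could not be made.

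Identifiers were matched to GENCODE M21 (GRCm38), which held 10005 of them, and 60 had no entry. Its positions are not printed because the notes name another build, and lengths come from it. Rows nearest in span were the 200 closest on a log scale, and a percentile is the share of other rows that are lower. Genes without a row do not enter these percentiles or medians. The calculation of rows nearest in span and of the percentile was tested on simulated data. There the level was set in proportion to span, more tightly than in these data, and no row was left out. The test therefore checks the calculation and not the use of span as a reference. Neighbouring genes were sought within 1 kb. Genes were named by a rule: the listed genes, genes with a row that overlap them (0 of 8 overlapping genes), the 2 highest and 2 lowest of each role group of the wider list, Adarb1, Adar and Ago4, and marker genes in ranges. Hsp90ab1, Tnrc6a, Tnrc6c, Ran, Lrrc4, Polh, Pjvk, Myh11, the snoRNA genes, Mir208a and Mir208b with their hosts, Gm47288, Mir1306, Gm24572, Chrac1 and Gm6088 were named after the data were seen. Fkbp4, Gm37967, Gm28375, Gm28085 and Slc39a9 were also named after the data were seen. The members and lists were chosen with earlier results of these data known. Alternatives were other lengths, reference rows, pseudocounts and a mean of at least 10. Calculations were run in Python 3.11.15 with pandas 2.3.3, numpy 2.4.6 and scipy 1.17.1, and plots were drawn with matplotlib 3.10.9.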

Additional observations from a re-analysis of the deposited data

How the results depend on the processing

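No paired analysis was possible because single animals have no value in the file, and for that reason no replicate was left out and no genotype test was run. Values were taken as moved when they changed by over 1.5 times. The median level of the 5 members, 1.62 per kb of exons, became 0.106 per kb of gene span and 3.44 per kb of coding length, which follows from the longer and shorter divisors. Their median percentile of 68.4 became 44.9 per kb of span, and it was 55.2 for the 3 members with a mean of at least 10 among rows that meet the same minimum. The difference of medians on the log2 scale, 0.71, became -0.015 per kb of span with a pseudocount of 1, which is large beside these levels, and -0.15 without one. With other pseudocounts (0.1 and 10) or the minimum mean of 10 the difference lay between 0.13 and 0.79. Per kb of exons, another scale, it was 0.15 with a pseudocount of 1 and 0.26 without. The median of the wider list, 7.26, became 31.1 among the 9 genes with a mean of at least 10 and 0.968 per kb of exons. Span settings for percentiles and for this difference, its settings without a pseudocount, and the comparisons with rows or genes of like span, were chosen after seeing the data. With the 100 and 400 nearest rows in place of 200, Ago1 stood above 4.0% and 4.5% of them. Depth is unknown, and low means such as that of Ago1 rest on few reads.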
